A study of Mus musculus with 6 samples.

Results

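The vacuolar proton pump (V-ATPase) was followed through 10 of its genes, chosen by symbol from the 20129 genes of the deposited table: Atp6v0a1, Atp6v0a2, Atp6v0c, Atp6v0d1, Atp6v0d2 and Atp6v0e of the membrane sector V0, Atp6v1a, Atp6v1b2 and Atp6v1h of the cytosolic sector V1, and the accessory gene Atp6ap1. All 10 were found in the table. They were measured by polyA-selected RNA sequencing in microglia, sorted as live CD45+ CD11b+ cells from brains of mice aged 5 months on the C57BL6/J background. 3 libraries came from Il3-/-5xFAD mice (replicates 1, 2 and 3), which lack the cytokine interleukin-3, and 3 from 5xFAD mice (replicates 4, 5 and 6). Both groups carried the 5xFAD transgenes, mutant human amyloid genes expressed under the neuronal Thy1 promoter. The label gives Il3-/- with no restriction to a cell type. Each library was a pool of 4 mice, 2 male and 2 female, so a library is a replicate and not a single animal.

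The V-ATPase is a rotary machine that uses ATP to push protons into lysosomes, endosomes and secretory vesicles. The V1 sector hydrolyses ATP, its rotation is passed on through a central stalk, and a ring of proteolipids in the V0 sector carries the protons across the membrane. In macrophages, microglia among them, the acid it makes activates the hydrolases that break down engulfed material. Several subunits exist as paralogues, and the d subunit, which joins the stalk to the proteolipid ring, is encoded by the ubiquitous Atp6v0d1 or by Atp6v0d2, best known from osteoclasts and macrophages.

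The libraries held between 27970850 and 37605490 reads. The unit of level is CPM, which sets each library's total to 1000000, and 1 read was worth 0.0266 to 0.0358 CPM. Il3, the targeted gene, had no read in the Il3-/-5xFAD libraries, against 54, 61 and 29 reads in the 5xFAD libraries. The microglia marker Csf1r was at 9617 to 10513 CPM in Il3-/-5xFAD and 9078 to 9666 CPM in 5xFAD. Another, P2ry12, chosen after its values had been seen, was at 2877 to 3614 CPM in Il3-/-5xFAD and 2679 to 2922 CPM in 5xFAD. Among markers of other cells, the neutrophil and choroid plexus sums did not overlap between the groups. The monocyte, border-associated macrophage and neuron sums did overlap. The sum of 10 neutrophil markers was 191 to 748 CPM in Il3-/-5xFAD and 1093 to 3002 CPM in 5xFAD. All 9 tested ones had negative differences, 4 of them called (S100a8, S100a9, Camp and Retnlg), and Ly6g was at 0 in Il3-/-5xFAD replicate 2. Of the 9, Elane reached the filter of 1 CPM in 3 libraries only through the 5xFAD group, so its sign was fixed by the filter. Of 6 monocyte markers 2 were called lower (Ly6c2 and Gda), with a sum of 72.3 to 147 CPM in Il3-/-5xFAD and 144 to 282 CPM in 5xFAD. Of 6 choroid plexus markers 2 were called lower (Ttr and Enpp2), with a sum of 63.3 to 131 CPM in Il3-/-5xFAD and 182 to 517 CPM in 5xFAD, and Kcnj13 was at 0 in Il3-/-5xFAD replicate 3. Border-associated macrophage markers, with Mrc1 and F13a1 (also on the monocyte list) the most abundant and none of 6 called, summed to 98.0 to 129 CPM in Il3-/-5xFAD and 123 to 158 CPM in 5xFAD. Of 7 neuron markers 1 was tested and none called, and they summed to no more than 3.85 CPM in Il3-/-5xFAD and 5.47 CPM in 5xFAD. By the edgeR fit with TMM factors none of the 9 neutrophil and 4 choroid plexus markers tested was called, and 1 monocyte marker was. DESeq2 called 6 neutrophil, 3 monocyte and 2 choroid plexus markers. Over all tested genes limma called 0.882%, edgeR 0.504% and DESeq2 5.09%. The part of these other cells in the differences described here was not tested.

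Of the 10 pump genes, Atp6v0d2 alone passed the limma test, and it was lower in Il3-/-5xFAD. It reached the filter of 1 CPM only through the 5xFAD group, so it could be called only in that direction. Neither edgeR nor DESeq2 called it. The other 9, which made up nearly all reads of the 10, had log2 differences between -0.31 (Atp6v0e) and 0.18 (Atp6v0a2), and none of them passed. A call is a limma adjusted p under 0.05, with adjustment over all 11900 tested genes, a rule that called 0.882% of them (0.252% higher and 0.63% lower). The median log2 difference of the 10 genes was -0.12, against -0.00059 over all tested genes, with 3 values above 0 and 7 below. The groups did not overlap for 1 gene that was higher (Atp6v0a2) and 4 that were lower (Atp6v0d1, Atp6v0d2, Atp6v0e and Atp6ap1), while non-overlap held for 21.2% of all tested genes (9.65% higher and 11.5% lower). Reads of the 10 genes together came to 1387 to 1458 CPM in Il3-/-5xFAD and 1426 to 1491 CPM in 5xFAD, ranges that overlapped. In bulk samples of this kind, fewer cells of a type and less RNA per cell cannot be told apart.

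**Figure D1:**
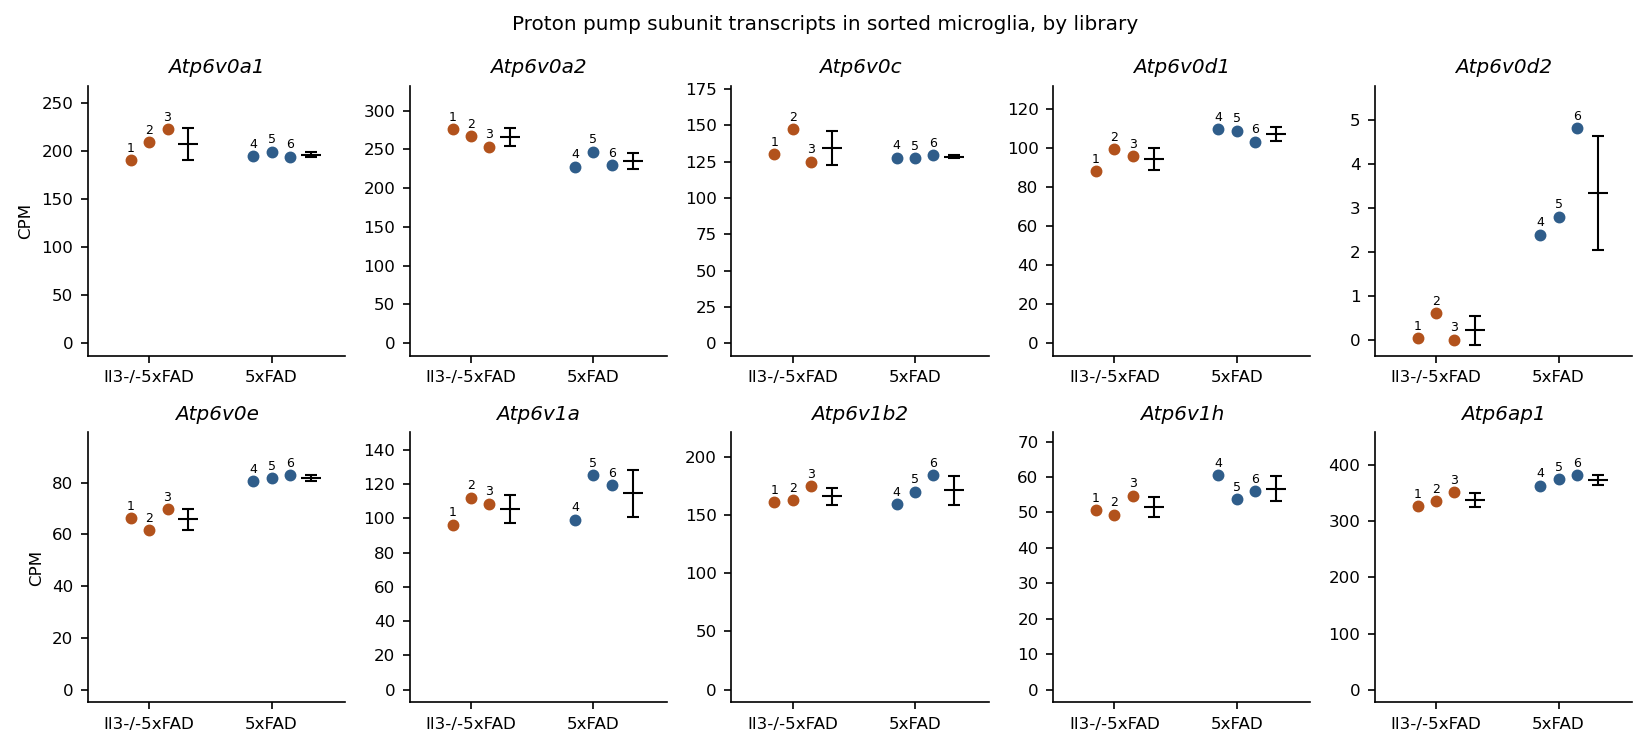
CPM (vertical axes, linear, different for each gene) of the 10 pump genes in each library, with points numbered by replicate and the mean ± SD of 3 libraries beside each group. Atp6v0d2 is near 0 in Il3-/-5xFAD and at 2.40 to 4.81 CPM in 5xFAD, whereas the groups lie close together for the other 9 genes.

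Atp6v0d2 had 1, 17 and 0 reads in Il3-/-5xFAD replicates 1, 2 and 3, against 67, 82 and 181 reads in 5xFAD replicates 4, 5 and 6. In CPM that was 0.0336, 0.604 and 0 in Il3-/-5xFAD and 2.40, 2.80 and 4.81 in 5xFAD. Every Il3-/-5xFAD library lay below every 5xFAD library, and replicate 2 held 17 of the 18 reads of its group. A count of 0 in replicate 3 allowed up to 0.0909 CPM. The log2 difference was -1.83 ± 0.32 on the log2(CPM + 1) scale (SE; 95% interval -2.53 to -1.13; limma adjusted p = 0.0288). That scale understates the change of so low a gene. Over the pooled reads of each group Atp6v0d2 was 17.6-fold lower in Il3-/-5xFAD (exact 95% interval 10.9 to 30.0, covering counting error only), and 218-fold lower without Il3-/-5xFAD replicate 2, where a single read was left (38.9 to 8653).

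The call of Atp6v0d2 rests on few reads. The gene reached the filter of 1 CPM in 3 libraries only through the 5xFAD group, so it could enter the test only by being higher there. With no filter it was not called (limma adjusted p = 0.205), nor by the edgeR fit with TMM factors (edgeR adjusted p = 0.0922), nor without 5xFAD replicate 5 or 6 (limma adjusted p = 0.0940 and 0.218). These settings called 0.0397%, 0.504%, 0.319% and 0.126% of all genes, fewer than the 0.882% above. DESeq2 called more, 5.09% of all genes, and did not call Atp6v0d2 either (DESeq2 adjusted p = 0.130). Over all alternatives that tested the gene, its adjusted p ran from 0.0176 to 0.218. Among the Il3-/-5xFAD libraries, replicate 2 had the most Atp6v0d2, the lowest neutrophil and monocyte marker sums (191 and 72.3 CPM) and the highest choroid plexus sum (131 CPM). Among the 5xFAD libraries, replicate 6 had the most Atp6v0d2 and the highest choroid plexus (517 CPM) and border-associated macrophage (158 CPM) sums, while replicate 5 had the highest neutrophil sum (3002 CPM). 5xFAD replicate 4 had fewer Atp6v0d2 reads than replicate 5 (67 against 82) but a higher choroid plexus sum (254 against 182 CPM). Il3-/-5xFAD replicate 3, with 0 reads, had a higher sum than replicate 1, with 1 read (77.0 against 63.3 CPM). Counts of 0 and 1 give no order. The border-associated macrophage sum was lowest in Il3-/-5xFAD replicate 2 (98.0 CPM). The part of these cells in the reads of Atp6v0d2 was not tested.

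Reads of the d paralogues can be told apart by sequence. Their coding sequences, of 1050 bases in Atp6v0d2 and 1053 bases in Atp6v0d1, were identical at 65.9% of aligned bases, and the longest run of identical bases was 17. No stretch of 50 bases in either gene's GENCODE transcripts occurred in a transcript of another gene. The most alike window of 60 coding bases is shown because it is where reads would be hardest to assign. Both run 5′ to 3′ from coding base 609 to 668 (GENCODE M21, GRCm38), with capitals at the 12 bases that differ.
Atp6v0d2: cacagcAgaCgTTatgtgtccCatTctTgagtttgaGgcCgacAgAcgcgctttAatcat
Atp6v0d1: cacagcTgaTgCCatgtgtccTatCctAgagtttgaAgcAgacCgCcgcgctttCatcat

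Atp6v0d1, the ubiquitous d subunit, was at 88.4, 99.4 and 96.0 CPM in Il3-/-5xFAD, against 110, 109 and 103 CPM in 5xFAD. The groups did not overlap, but they lay close, with 99.4 CPM in Il3-/-5xFAD replicate 2 and 103 CPM in 5xFAD replicate 6 as nearest libraries. The log2 difference was -0.18 ± 0.08 (SE; 95% interval -0.36 to -0.0020; limma adjusted p = 0.298), and it was -0.09 after correction for a trend of log2 values with transcript length.

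Per 1000 bases of the longest coding GENCODE transcript, Atp6v0d2 stood far below its paralogue in both groups. On that scale Atp6v0d2 was at 0.0837 ± 0.134 CPM per kb in Il3-/-5xFAD and 1.31 ± 0.510 in 5xFAD, while Atp6v0d1 was at 58.1 ± 3.47 in Il3-/-5xFAD and 65.9 ± 2.19 in 5xFAD (SD, n = 3 each). Atp6v0d2 thus made up 0.0244%, 0.388% and 0% of the d transcripts in Il3-/-5xFAD replicates 1, 2 and 3. In 5xFAD replicates 4, 5 and 6 it made up 1.38%, 1.62% and 2.90%. On the log2(CPM + 1) scale, without length, Atp6v0d2 minus Atp6v0d1 was -6.33 ± 0.33 in Il3-/-5xFAD and -4.68 ± 0.46 in 5xFAD, a difference of -1.65 (exact permutation test, two-sided, p = 0.1, the smallest that 3 libraries against 3 can give). Every Il3-/-5xFAD library had the lower value. This separation restates that of Atp6v0d2, which reached the filter of 1 CPM only through the 5xFAD group, because Atp6v0d1 differed little. Neither the separation nor the permutation p is separate support. The pseudocount sets the size of the difference in the ratio, which was -0.49 with a pseudocount of 5 and -2.95 with 0.25.

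Atp6v0e, a small membrane subunit, had the largest difference among the other 9 genes. It was at 66.2, 61.6 and 69.8 CPM in Il3-/-5xFAD, against 80.5, 81.8 and 82.9 CPM in 5xFAD, with no overlap. The mean was 65.9 ± 4.13 CPM in Il3-/-5xFAD, 80.6% of the mean of 81.7 ± 1.19 CPM in 5xFAD (SD, n = 3 each). The log2 difference of -0.31 ± 0.09 (SE; 95% interval -0.50 to -0.12) did not pass (limma adjusted p = 0.0990). It did pass in DESeq2 on the recovered reads (DESeq2 adjusted p = 0.0406), which called 5.09% of all genes, and without Il3-/-5xFAD replicate 3 (limma adjusted p = 0.0448), where 5.08% of all genes were called. Over all alternatives its adjusted p ran from 0.0406 to 0.374.

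The a subunit lines the path of the protons and sets the membrane in which a pump sits. Atp6v0a1, most abundant in neurons, was at 190, 209 and 223 CPM in Il3-/-5xFAD, against 195, 199 and 194 CPM in 5xFAD. The lowest library was an Il3-/-5xFAD one and so were the highest, and the log2 difference was 0.08 ± 0.08 (SE; 95% interval -0.10 to 0.26; limma adjusted p = 0.677). Atp6v0a2, the form known from the Golgi and endosomes, was at 277, 267 and 254 CPM in Il3-/-5xFAD, against 228, 247 and 229 CPM in 5xFAD. Here every Il3-/-5xFAD library was the higher, by a log2 difference of 0.18 ± 0.08 (SE; 95% interval 0.01 to 0.35) that did not pass (limma adjusted p = 0.269). Atp6v0a2 shares exon bases with 1 gene on the opposite strand, 4930404A12Rik, and whether reads were counted by strand is not given in the sources used here.

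Set beside the a3 gene Tcirg1, the form of macrophage lysosomes and the ruffled border of osteoclasts, both were minor. Tcirg1 was at 747, 618 and 522 CPM in Il3-/-5xFAD, against 649, 510 and 495 CPM in 5xFAD (limma adjusted p = 0.535). Of the a transcripts per kb, Tcirg1 made up 66.8 ± 4.40% in Il3-/-5xFAD and 65.9 ± 3.59% in 5xFAD. Atp6v0a1 made up 17.02 ± 3.25% in Il3-/-5xFAD and 17.9 ± 1.73% in 5xFAD, and Atp6v0a2 16.2 ± 1.15% in Il3-/-5xFAD and 16.2 ± 1.88% in 5xFAD (SD, n = 3 each). All 3 differences in share were smaller than the SD within a group. The kidney form Atp6v0a4 had at most 0.107 CPM in any library.

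**Figure D2:**
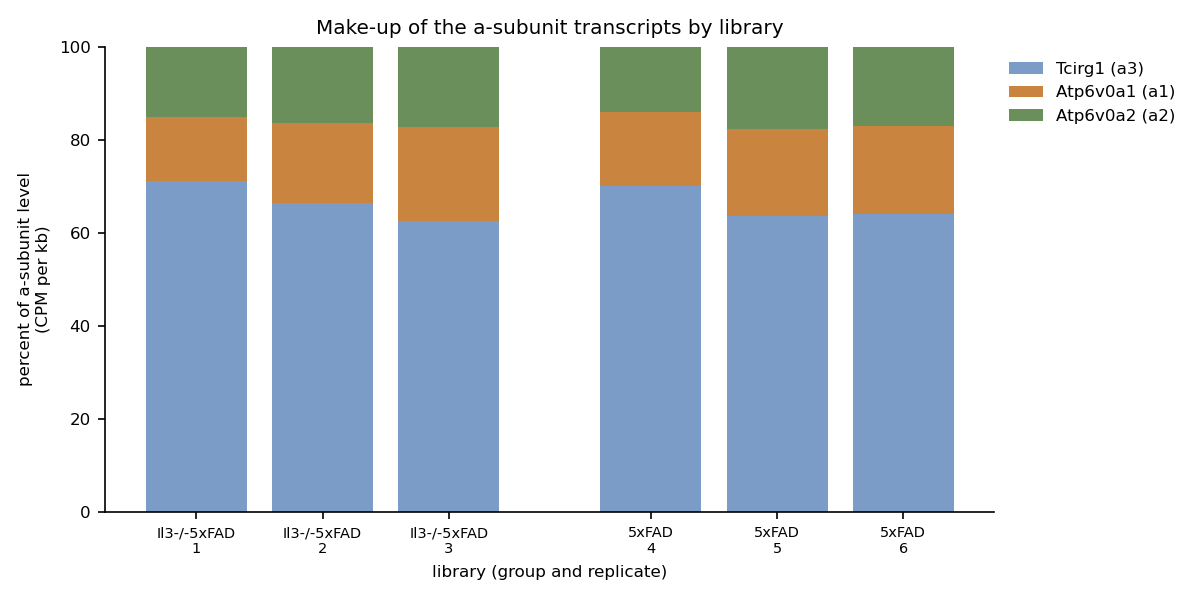
Percent of the a-subunit level (CPM per kb of the longest coding transcript) given by Tcirg1, Atp6v0a1 and Atp6v0a2 in each library, as stacked bars. Tcirg1 makes up 62.5% to 71.3% in the Il3-/-5xFAD libraries and 63.6% to 70.1% in the 5xFAD libraries.

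Atp6v0c, the proteolipid that forms most of the proton-carrying ring, was at 130, 148 and 125 CPM in Il3-/-5xFAD, against 128, 128 and 130 CPM in 5xFAD. The 5xFAD libraries lay inside the range of the Il3-/-5xFAD ones, and the log2 difference was 0.06 ± 0.08 (SE; 95% interval -0.12 to 0.25; limma adjusted p = 0.767). Of its stretches of 50 bases, pooled over all its transcripts, 10.7% also occur in the processed pseudogene Atp6v0c-ps2, which has no value of its own here. Reads from these stretches could belong to either gene. What share of the Atp6v0c reads this concerns was not measured. With all other genes together, Atp6v0c shared 10.8% of its stretches, against at most 0.983% (Atp6v1a) for the other 9 genes.

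Among the V1 members, Atp6v1a, the catalytic subunit that binds and splits ATP, was at 96.4, 112 and 109 CPM in Il3-/-5xFAD, against 99.2, 125 and 119 CPM in 5xFAD. Atp6v1b2, its partner in the catalytic head in most tissues, was at 161, 163 and 174 CPM in Il3-/-5xFAD, against 159, 170 and 184 CPM in 5xFAD. Atp6v1h, which regulates ATP hydrolysis and holds the free V1 sector inactive, was at 50.6, 49.3 and 54.7 CPM in Il3-/-5xFAD, against 60.5, 53.7 and 56.0 CPM in 5xFAD. The groups overlapped for all 3 genes. Their log2 differences were -0.11 (95% interval -0.34 to 0.11), -0.04 (-0.22 to 0.14) and -0.14 (-0.34 to 0.07), with limma adjusted p of 0.639, 0.854 and 0.517. The level of Atp6v1b2 over that of Atp6v1a, both per kb, was 2.36 ± 0.167 in Il3-/-5xFAD and 2.25 ± 0.193 in 5xFAD (SD, n = 3 each). Exons of Atp6v1h overlap Rgs20 on the opposite strand, a gene with no more than 6 reads in any library.

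Atp6ap1, an accessory subunit that helps to assemble and sort the pump, was at 327, 336 and 353 CPM in Il3-/-5xFAD, against 364, 375 and 382 CPM in 5xFAD. Each Il3-/-5xFAD library was the lower, and the mean was 90.6% of that in 5xFAD. The log2 difference of -0.14 ± 0.07 (SE; 95% interval -0.30 to 0.02) did not pass (limma adjusted p = 0.367).

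Per kb, the order of the 10 genes was led by Atp6ap1 in both groups (155 ± 5.88 CPM per kb in Il3-/-5xFAD and 171 ± 4.28 in 5xFAD; SD, n = 3 each). Atp6v0c came next (114 ± 10.005 in Il3-/-5xFAD and 108.5 ± 0.944 in 5xFAD). Below these, Atp6v1b2 (58.7 ± 2.63) and Atp6v0d1 (58.1 ± 3.47) did not differ beyond their spread in Il3-/-5xFAD, nor did Atp6v0a1 (51.7 ± 4.11) and Atp6v0a2 (49.8 ± 2.15). Atp6v1h (25.2 ± 1.37), Atp6v1a (24.95 ± 1.94) and Atp6v0e (23.4 ± 1.47) stood together in Il3-/-5xFAD, and they were at 27.7 ± 1.67, 27.1 ± 3.21 and 29.1 ± 0.423 in 5xFAD. Atp6v0d2 was last. The spread within a group was small for the 9 genes other than Atp6v0d2, with coefficients of variation from 3.797% (Atp6ap1) to 8.81% (Atp6v0c) in Il3-/-5xFAD and from 0.871% (Atp6v0c) to 11.9% (Atp6v1a) in 5xFAD.

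Of 14 other subunit genes looked for, 10 were in the table and 8 were tested, and none passed by limma, edgeR or DESeq2. Their median log2 difference was -0.12, and 3 had an unadjusted limma p under 0.05, as did 16.5% of all tested genes. Atp6v1f, a small stalk subunit, was at 49.7, 68.0 and 73.4 CPM in Il3-/-5xFAD, against 82.6, 80.8 and 91.6 CPM in 5xFAD, -0.43 ± 0.13 on the log2 scale (SE; limma adjusted p = 0.126). Atp6v1g1, of the outer stalks, was at 78.3, 88.6 and 103 CPM in Il3-/-5xFAD, against 115, 101 and 109 CPM in 5xFAD, or -0.27 ± 0.10 in log2 units (SE; limma adjusted p = 0.214). Their transcripts are short (806 and 1135 bases), and the differences were -0.19 and -0.11 after the length correction. Of the stretches of 50 bases in Atp6v1f and Atp6v1g1, 11.2% and 19.2% occur in another gene's transcripts. Both were called without Il3-/-5xFAD replicate 3 (limma adjusted p = 0.0453 and 0.0476), and over all alternatives their adjusted p ran up to 0.445 and 0.610. Atp6v1g2, the neuronal form of G, was at 3.59, 4.12 and 3.52 CPM in Il3-/-5xFAD, against 1.07, 3.04 and 2.50 CPM in 5xFAD. All Il3-/-5xFAD libraries were higher, by 0.62 ± 0.28 in log2 units (SE; limma adjusted p = 0.298), and its exons overlap Nfkbil1 on the opposite strand. Atp6v0b, Atp6v1c1, Atp6v1d and Atp6v1e1 had differences of -0.04, -0.18, -0.11 and -0.12, and Atp6v0e2 had no more than 1.33 CPM in any library.

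Of 4 genes for the accessory subunit and for the assembly of V0 in the endoplasmic reticulum, all tested, none passed by limma, edgeR or DESeq2, and none had an unadjusted limma p under 0.05. Atp6ap2, the prorenin receptor and second accessory subunit, was at 190 ± 6.65 CPM in Il3-/-5xFAD and 191 ± 8.73 CPM in 5xFAD (SD, n = 3 each), with a 95% interval of the log2 difference of -0.17 to 0.16. Vma21, Tmem199 and Ccdc115 had log2 differences of -0.04 ± 0.15, -0.11 ± 0.13 and -0.22 ± 0.11 (SE). Of the stretches of 50 bases in Ccdc115, 15.5% occur in transcripts of other genes.

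**Figure D3:**
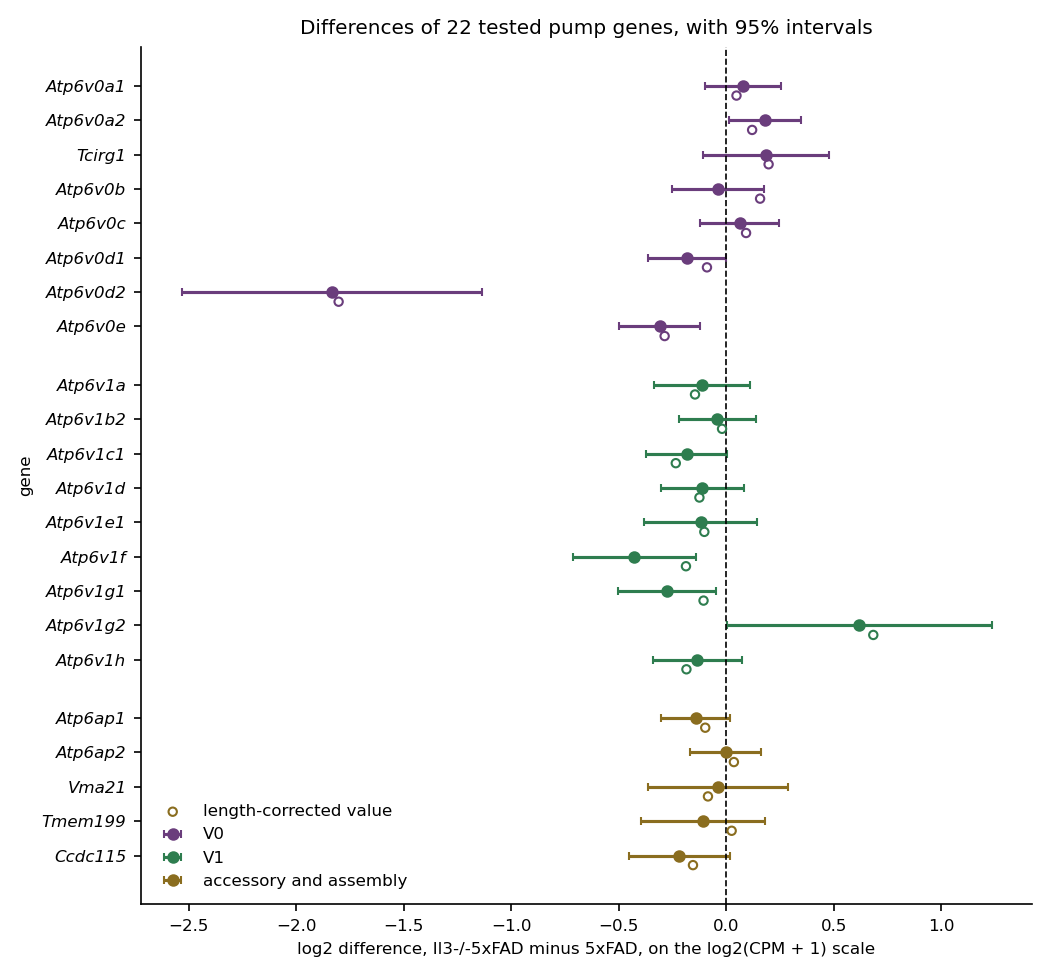
Log2 differences, Il3-/-5xFAD minus 5xFAD, on the log2(CPM + 1) scale (filled points, with 95% intervals) of the tested V0, V1 and accessory or assembly genes, and the same after correction for transcript length (open points, which move little for most genes). The interval of Atp6v0d2, -2.53 to -1.13, lies apart from those of the other genes, whose differences range from -0.43 to 0.62.

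Many pump genes carry the CLEAR element, an E-box bound by the transcription factor TFEB and its relatives, and the promoters were searched for it. RefSeq promoters (GRCm38.p6, 250 bases before to 50 after the start) were found for 6 of the 10 genes, Atp6v0a1, Atp6v0c, Atp6v0d1, Atp6v0e, Atp6v1a and Atp6ap1. The palindrome TCACGTGA, which reads the same on both strands, occurred in 3 of the 6 genes. Among all pump genes with a promoter, other subunit and assembly genes included, it occurred in 4 of 22. Of all 32851 promoters in that table, a count of promoters and not of genes, 0.974% held it. Its core CACGTG, which the longer motif contains, occurred in the same 3 of the 6, in 6 of the 22 and in 7.15% of all promoters. The related TCATGTG, searched on both strands, occurred in Atp6v0c (3.77% of all promoters). The 3 sites are shown as 40 bases on the gene's strand, 5′ to 3′, with the core in capitals. They lie at chr8:105566045-105566084 (minus strand), chr17:26676382-26676421 (plus strand) and chr16:44139368-44139407 (minus strand).
Atp6v0d1: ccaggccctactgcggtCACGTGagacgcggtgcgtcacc
Atp6v0e: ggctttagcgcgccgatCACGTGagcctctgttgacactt
Atp6v1a: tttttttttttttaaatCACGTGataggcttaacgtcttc
The 3 genes had log2 differences of -0.18, -0.31 and -0.11, and a match is not evidence of binding. The factors of this family were measured as well. Tfe3 was at 219.5, 214 and 173 CPM in Il3-/-5xFAD, against 179, 191 and 176 CPM in 5xFAD (limma adjusted p = 0.494). Tfeb was at 69.9, 62.5 and 69.7 CPM in Il3-/-5xFAD, against 73.5, 65.6 and 64.9 CPM in 5xFAD (limma adjusted p = 0.965). None of the 3 tested of 4 such factors passed by limma, edgeR or DESeq2, and none had an unadjusted p under 0.05. Tfec, too low to be tested, had 20, 7 and 5 reads in Il3-/-5xFAD, against 46, 19 and 68 reads in 5xFAD, and its groups overlapped in CPM.

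Genes that work with the pump at the lysosome did not pass singly either. Of 7 tested factors that help V1 and V0 to join, none was called by limma, edgeR or DESeq2, with a median log2 difference of 0.07, and 1 had an unadjusted limma p under 0.05. Rogdi and Dmxl1, the most abundant, differed by -0.05 ± 0.10 and 0.27 ± 0.14 (SE). Of 10 endolysosomal ion channels and exchangers none was called by limma or edgeR and 1 by DESeq2 (Clcn5, higher), with a median of 0.04 and 1 unadjusted p under 0.05. The chloride-proton exchanger gene Clcn4-2 and the channel gene Tpcn1, the most abundant, differed by 0.07 ± 0.08 and -0.07 ± 0.07 (SE). Of 9 tested genes of Ragulator and the Rag GTPases, which bind the pump when amino acids are sensed, none was called by limma or edgeR and 2 by DESeq2 (Lamtor3 and Rragd, lower), 8 differences were negative, the median was -0.22 and 3 had an unadjusted p under 0.05, against the 16.5% of all tested genes given above. Rragc and Lamtor1 (2400001E08Rik in the table), the most abundant, differed by -0.0041 ± 0.08 and -0.22 ± 0.12 (SE). Part of this shift went with the length correction. Lamtor2, Lamtor4 (0910001L09Rik) and Lamtor5 (Hbxip) moved from -0.37, -0.17 and -0.24 to -0.09, 0.03 and -0.02. Lamtor3 and Rragd changed little, from -0.42 and -1.11 to -0.39 and -1.16.

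Atp6v0d2 was set beside genes of the osteoclast, the cell type in which it is best known. Of 8 such genes 5 were tested and 1 was called by limma (Gpnmb), with 3 differences below 0 and 2 above. The edgeR fits called Gpnmb alone, and DESeq2 called Gpnmb and Acp5. Of all tested genes, limma called 0.882%, edgeR with TMM factors 0.504% and DESeq2 5.09%. Gpnmb, a membrane glycoprotein of lysosome-rich macrophages, was at 3.16, 16.3 and 6.43 CPM in Il3-/-5xFAD, against 30.1, 73.4 and 95.2 CPM in 5xFAD, which is -2.90 ± 0.47 in log2 units (SE; limma adjusted p = 0.0222). Like Atp6v0d2 it was highest in replicate 2 among the Il3-/-5xFAD libraries and in replicate 6 among the 5xFAD ones. The other 7 genes of the list were chosen after their values had been seen. So were Rragd, Clcn5, Tfec, Elane, Lamtor2, Lamtor3, Lamtor4 and Lamtor5. The acid phosphatase gene Acp5 was at 1.54, 1.28 and 0.576 CPM in Il3-/-5xFAD, against 8.08, 2.08 and 6.33 CPM in 5xFAD (limma adjusted p = 0.0807). Dcstamp, a fusion protein gene, was at 0.470, 0.817 and 1.18 CPM in Il3-/-5xFAD, against 0.608, 2.80 and 1.91 CPM in 5xFAD, and the groups overlapped (limma adjusted p = 0.479).

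The remaining genes of the list did not share that direction. Nfatc1, an osteoclast transcription factor also made in other cells, was at 156 ± 7.77 CPM in Il3-/-5xFAD and 144 ± 2.10 CPM in 5xFAD (SD, n = 3 each; limma adjusted p = 0.489), with no overlap. Tnfrsf11a, the receptor RANK, was at 87.8 ± 5.75 CPM in Il3-/-5xFAD and 77.1 ± 3.88 CPM in 5xFAD (SD, n = 3 each; limma adjusted p = 0.328), and its groups overlapped. The protease gene Ctsk was too low to be tested, with 10, 13 and 12 reads in the Il3-/-5xFAD libraries, against 0, 1 and 6 reads in the 5xFAD libraries, all lower. Ocstamp and Oscar had no read in 5xFAD and at most 0.391 and 0.0710 CPM in an Il3-/-5xFAD library. Of the Ragulator and Rag list, the GTPase gene Rragd was at 3.19, 6.71 and 5.27 CPM in Il3-/-5xFAD, against 8.69, 12.8 and 14.1 CPM in 5xFAD (limma adjusted p = 0.0629).

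**Figure D4:**
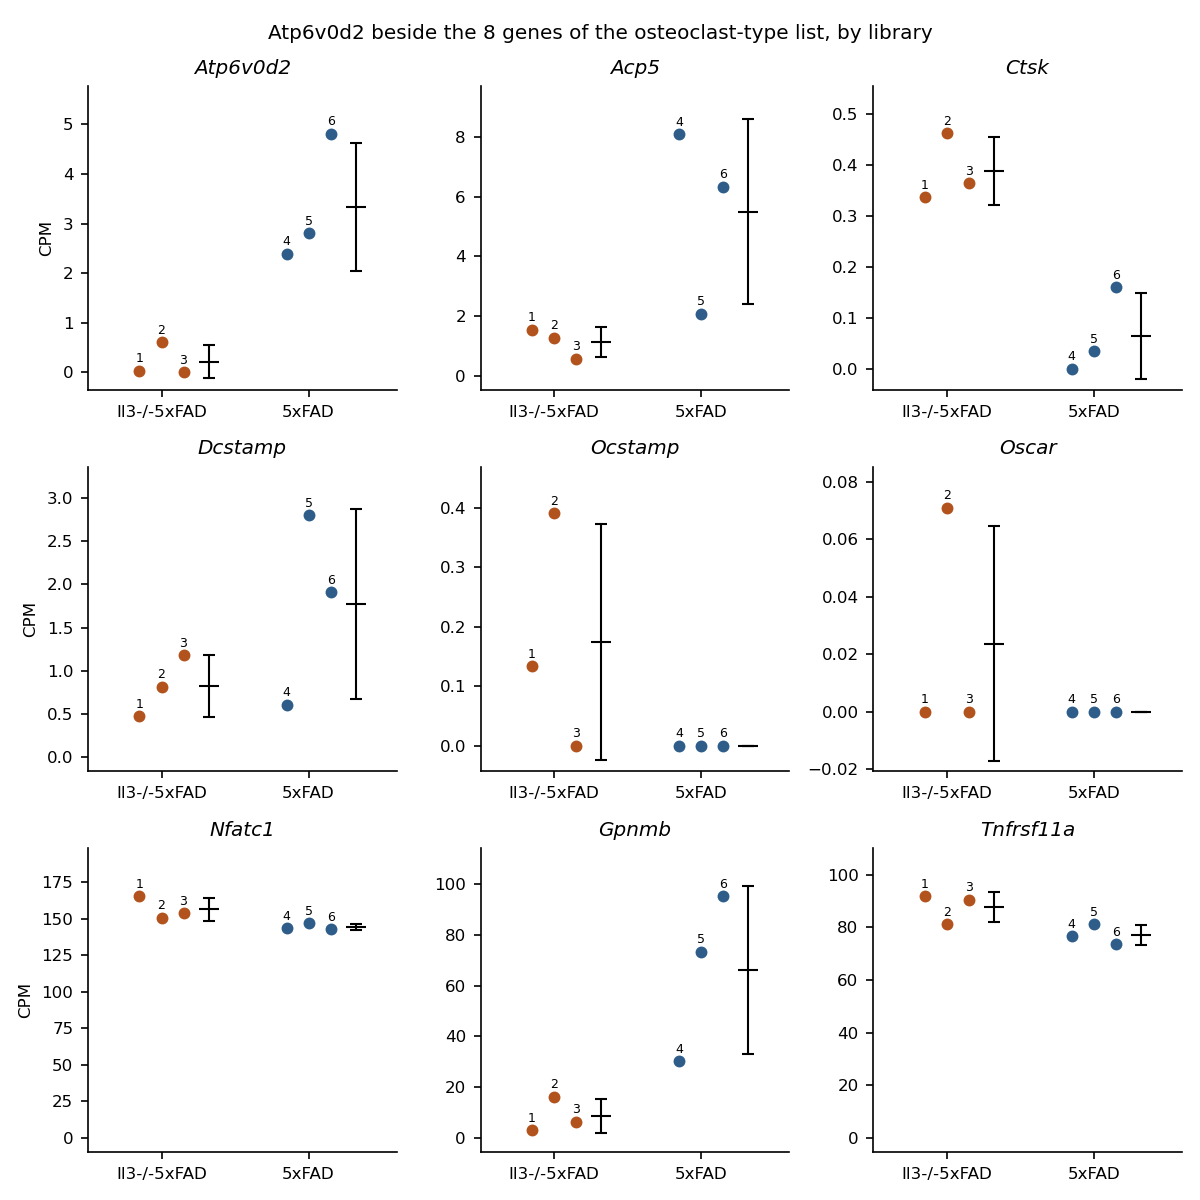
CPM (vertical axes, linear, different for each gene) of Atp6v0d2 and the 8 osteoclast-type genes in each library, with points numbered by replicate and the mean ± SD of 3 libraries beside each group. All Il3-/-5xFAD libraries lie below all 5xFAD libraries for Atp6v0d2, Gpnmb and Acp5, and above them for Nfatc1 and Ctsk, while the groups overlap for Dcstamp, Tnfrsf11a, Ocstamp and Oscar.

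Over the 6 libraries, the genes most like Atp6v0d2 were sought among the 9808 genes averaging 5 CPM or more, by the root mean square difference between log2(CPM + 1) values centred on each gene's mean. The nearest were Enpp2 (0.308), Cd3d (0.309), Dlg5 (0.310), Ly6c2 (0.324) and Flt1 (0.329). Their log2 differences ran from -1.75 to -1.42, all but that of Flt1 called by limma, and Enpp2 and Ly6c2 are among the choroid plexus and monocyte markers above. Genes picked for likeness in these same libraries have differences and calls like those of the gene searched for, by that choice alone. The log2(CPM + 1) scale, which understates the change of Atp6v0d2, also bears on which genes came nearest. Atp6v0d1 lay closer to its nearest genes, Trappc4 (0.0245), Pole4 (0.0263), Lmo2 (0.0298), Cnbp (0.0311) and Cyb5d2 (0.0381), none of which was called. Likeness over 6 libraries is a description of these libraries, and depth and makeup of each library are shared by all genes in it.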

How the data were processed

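The authors deposited CPM values, in a single table (20129 genes, 6 libraries) where every column adds up to 1000000. STAR, HTSeq, edgeR and the build mm9 are listed, with no version or role, in the submitters' processing notes. The annotation, the strand setting and any filter are not known from the sources used here. Groups and replicate numbers were read from the titles, and no number occurs in both groups, so samples were not paired; p-values measure the spread between pools of mice. All deposited CPM values (100%, to within 0.01 reads) were whole multiples of what 1 read is worth, which gave back the reads.

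The filter kept 11900 genes that reached 1 CPM in 3 or more libraries. These were tested by limma 3.58.1 in R 4.3.3 (eBayes with trend, two-sided) on log2(CPM + 1), as Il3-/-5xFAD minus 5xFAD, and p-values were adjusted by Benjamini-Hochberg. As alternatives, the pseudocount was set to 0.25 or 5, the filter was dropped or set to a mean of 5 CPM, values were rescaled by median ratios, eBayes was run without trend or robustly, a trend with transcript length was removed (lowess, span 0.3, longest GENCODE transcript), each library was left out, and edgeR 4.0.16 and DESeq2 1.42.0 were run on the reads. The members and lists were chosen with earlier results of these data known. Named were the 10 members, all measured subunit and assembly genes, in each further list up to 4 called genes or otherwise the 2 most abundant, and the 5 genes most like Atp6v0d2 and Atp6v0d1. Tables of GRCm38 served for lengths and sequences only, so no gene coordinates are given for the deposited values. The limma code was checked on simulated counts with known changes. Only genes averaging 5 CPM or more were changed there, so the check does not cover a gene as low as Atp6v0d2 (mean 1.77 CPM).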

Additional observations from a re-analysis of the deposited data

How the results depend on the processing

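The fall of Atp6v0d2 kept its direction in all 16 alternatives that tested it and its call in 9. Only the 5xFAD group brought the gene past the filter of 1 CPM, so in the filtered fits that direction was fixed in advance. All alternatives reused these libraries and are not separate support. The log2 difference of Atp6v0d2 was -0.67 with a pseudocount of 5 and -3.13 with 0.25, where the gene was called (limma adjusted p = 0.0383 and 0.0366). It was -1.83 with no filter and without the variance trend (limma adjusted p = 0.205 and 0.0977), where the call was lost, and -3.98, -4.0 and -3.95 by edgeR with TMM factors, edgeR with library totals and DESeq2, which also did not call it. Without 1 library it ran from -2.05 to -1.60, and the call was lost without 5xFAD replicate 5 or 6. A filter on mean level (5 CPM) left it out by construction. The number of the 10 genes called was 0 with no filter, with the mean filter, without the trend and by both edgeR fits, and 0 to 2 without 1 library. The number of other subunits called was 0 to 2 without 1 library and 0 elsewhere. Over all genes, limma called 105, against 8 with no filter, 68 with the mean filter, 68 after median-ratio rescaling, 10 without the trend, 60 and 69 by edgeR with and without TMM factors, 605 by DESeq2, 60 after the length correction, and 15 (without 5xFAD replicate 6) to 605 (without Il3-/-5xFAD replicate 3) without 1 library. Small differences turned sign after the length correction for Atp6v0b (0.16), Atp6ap2 (0.035) and Tmem199 (0.025). Leaving out 1 library gave ranges that crossed 0 for Atp6v0c (-0.0075 to 0.11), Atp6v1b2 (-0.091 to 0.012), Atp6v0b (-0.12 to 0.037), Atp6v1e1 (-0.25 to 0.019), Atp6ap2 (-0.041 to 0.021) and Vma21 (-0.13 to 0.091), none of them called. The causes of these changes were not tested. The difference in the log2 ratio of the d paralogues was -0.49 with a pseudocount of 5, -2.95 with 0.25, and -1.83 to -1.39 without 1 library. No paired analysis was possible because the groups shared no replicate number. At 18 reads over 3 libraries, the level of Atp6v0d2 in Il3-/-5xFAD is limited by depth.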
